A study of Homo sapiens with 12 samples.

Results

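The genes of HLA class I antigen presentation were followed across all 4 groups of the series. They were the 9 genes HLA-B, HLA-C, HLA-E, HLA-F, B2M, TAP1, TAP2, TAPBP and NLRC5, chosen by symbol out of the 19447 gene symbols of the deposited count table, and all 9 had a row. Messenger RNA was counted per gene in 12 libraries, 3 for each group. K562 is a human chronic myeloid leukemia line that carries the BCR-ABL fusion, and it served as the imatinib-sensitive parent without drug. The K562+L group was the same line given lycorine, an alkaloid of Amaryllidaceae plants, at 6 µM. K562/IM is a single imatinib-resistant line raised from K562 by stepwise exposure to imatinib and kept in 5 µM imatinib, so resistance, long culture and imatinib itself came together in that group. The last group carried the label K562/IM+L, that is K562/IM with lycorine at 6 µM. Its group name in the labels differs from the one in the figures of the study, so "labelled" is kept before the name of these 3 libraries everywhere. The time in lycorine before sequencing is not given in the sources used here. Nothing states that the libraries of a group came from separate cultures, and p-values therefore measure the spread between these libraries, which may be technical.

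Class I molecules display short peptides from inside the cell to T cells and to natural killer cells. A polymorphic heavy chain, HLA-B or HLA-C among others, pairs with beta-2 microglobulin (B2M) in the endoplasmic reticulum, where the TAP1-TAP2 transporter delivers peptides made by the proteasome and tapasin (TAPBP) holds the empty molecule at the transporter. HLA-E is a non-classical heavy chain that presents leader peptides of other class I chains to an inhibitory receptor of natural killer cells, and HLA-F is another non-classical chain. NLRC5 is the class I transactivator, which acts with the RFX, CREB/ATF and NF-Y factors at class I promoters, and interferons act on the same genes through IRF and STAT factors. K562 cells are known as a target of natural killer cells because they display very little class I.

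Total counts lay between 75093844 and 107344598 a library. Levels are given as CPM, the count divided by the library's total and put on a common scale by TMM, over the 12 libraries. Before any result, one feature of the labelled K562/IM+L libraries needs stating. The summed level of 10 erythroid and megakaryocytic markers, among them GATA1 and the fetal globins HBG1 and HBG2, was 31850 to 44730 CPM there, against 6162 to 8557 in K562, 4182 to 4791 in K562+L and 2448 to 2689 in K562/IM. Most of the sum in the labelled K562/IM+L libraries was HBG2, HBZ and HBG1, at means of 16991, 11125.5 and 8516 CPM. GATA1 was at a mean of 229.7 CPM in K562, 205.9 in K562+L, 196.0 in K562/IM and 249.8 in the labelled libraries. Of the 10 markers, 8 were higher in the labelled libraries than in K562. Erythroid character is a known property of K562, and all 10 markers were tested in every comparison.

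On GRCh38 with GENCODE release 29, most members lie in the major histocompatibility complex of chromosome 6. HLA-F spans chr6:29722775-29738528 and HLA-E chr6:30489467-30494205, both on the plus strand. On the minus strand lie HLA-C at chr6:31268749-31272130, HLA-B at chr6:31269491-31357188, TAP2 at chr6:32821833-32838780, TAP1 at chr6:32845209-32853978 and TAPBP at chr6:33299694-33314387. B2M lies at chr15:44711487-44718877 and NLRC5 at chr16:56989485-57083531, both on the plus strand. The annotation limits what a count can be assigned to. HLA-B and HLA-C share 35 exonic bases on the same strand, and their coding sequences are 92.6% identical. Of the 50-base words of its coding sequence, HLA-E shares 11.6% with other genes, HLA-C 8.22% and HLA-B 2.4%, while B2M, TAPBP and NLRC5 share none. TAP2 shares 91.4% of its words with AL669918.1, an overlapping annotation on the same strand that has no row in the table. How the counting treated such reads is not given in the sources used here, and the levels of single heavy chain genes and of TAP2 are uncertain to that extent.

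Members that moved together or in opposite directions are shown here by their promoters, because class I regulation is usually described from short elements just upstream of the start. The sequences are RefSeq reference sequence of GRCh38.p14 from 250 bases before to 50 bases after the start site, not the alleles of K562. A promoter was matched by symbol for 7 of the 9 members, and 6 windows are printed 5′ to 3′. Capitals mark matches, on either strand, to an ISRE-like motif (GAAA, any 2 bases, GAAA), an X2-like motif (TGACG), a Y-like motif (CCAAT) and a kappaB-like motif (GGG, any 2 bases, TT, any base, CC). These motifs were chosen after the promoters had been seen, and adjoining ISRE-like matches overlap.
HLA-B, chr6:31357130-31357429, minus strand: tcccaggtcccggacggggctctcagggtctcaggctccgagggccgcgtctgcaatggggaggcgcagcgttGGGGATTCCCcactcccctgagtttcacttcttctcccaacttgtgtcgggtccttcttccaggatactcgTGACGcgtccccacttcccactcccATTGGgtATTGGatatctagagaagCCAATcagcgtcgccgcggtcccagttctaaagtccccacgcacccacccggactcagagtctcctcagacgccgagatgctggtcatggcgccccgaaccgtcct
HLA-C, chr6:31272043-31272342, minus strand: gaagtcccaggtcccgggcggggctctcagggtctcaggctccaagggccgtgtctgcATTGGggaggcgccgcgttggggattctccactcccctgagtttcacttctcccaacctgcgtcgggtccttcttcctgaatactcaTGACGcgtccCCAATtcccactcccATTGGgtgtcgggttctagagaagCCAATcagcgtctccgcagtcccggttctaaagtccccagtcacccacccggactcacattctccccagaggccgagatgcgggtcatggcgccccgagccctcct
B2M, chr15:44711267-44711566, plus strand: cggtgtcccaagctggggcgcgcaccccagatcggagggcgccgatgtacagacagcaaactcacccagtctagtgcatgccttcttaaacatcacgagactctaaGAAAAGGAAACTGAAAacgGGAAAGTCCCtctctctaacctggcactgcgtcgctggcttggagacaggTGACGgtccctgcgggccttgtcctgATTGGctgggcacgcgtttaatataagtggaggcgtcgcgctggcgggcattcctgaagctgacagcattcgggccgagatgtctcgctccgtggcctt
TAP1, chr6:32853655-32853954, minus strand: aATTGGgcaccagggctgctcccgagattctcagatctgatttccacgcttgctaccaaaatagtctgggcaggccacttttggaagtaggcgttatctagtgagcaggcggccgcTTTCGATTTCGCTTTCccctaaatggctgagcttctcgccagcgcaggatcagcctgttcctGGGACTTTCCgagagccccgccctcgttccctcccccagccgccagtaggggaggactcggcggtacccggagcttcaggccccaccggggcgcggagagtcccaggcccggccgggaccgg
TAP2, chr6:32838690-32838989, minus strand: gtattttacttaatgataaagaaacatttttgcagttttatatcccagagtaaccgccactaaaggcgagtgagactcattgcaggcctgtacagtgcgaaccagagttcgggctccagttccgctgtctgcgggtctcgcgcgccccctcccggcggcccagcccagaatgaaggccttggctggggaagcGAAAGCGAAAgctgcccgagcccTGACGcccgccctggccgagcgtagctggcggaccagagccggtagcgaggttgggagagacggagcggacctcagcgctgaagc
TAPBP, chr6:33314029-33314328, minus strand: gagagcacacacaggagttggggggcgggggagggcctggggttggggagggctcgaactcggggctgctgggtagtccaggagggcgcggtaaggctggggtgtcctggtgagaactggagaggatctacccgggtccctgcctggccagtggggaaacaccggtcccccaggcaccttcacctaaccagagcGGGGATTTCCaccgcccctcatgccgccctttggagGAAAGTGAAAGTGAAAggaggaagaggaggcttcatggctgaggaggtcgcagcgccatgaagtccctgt
HLA-B and HLA-C each held 1 X2-like match, starting at position -106 and -105 from the start site. Their Y-like matches started at -81, -74 and -56 in HLA-B and at -192, -95, -80 and -56 in HLA-C. B2M held X2-like and Y-like matches at -75 and -49. Of all 35116 RefSeq promoters, 24.6% held the X2-like motif, 34.6% the Y-like motif and 8.69% both. B2M, HLA-F, TAP1, TAP2 and TAPBP, 5 of the 7 members, held an ISRE-like match, as 3.57% of all promoters did, and HLA-B and HLA-C held none. TAP1 has a second RefSeq window, not printed, without any of the 4 motifs. The kappaB-like motif, present in 5.68% of all promoters, was matched in HLA-B, B2M, TAP1 and TAPBP. The printed windows of TAP1 and TAP2 shared the ISRE-like motif and differed in the other 3: TAP1 held Y-like and kappaB-like matches and TAP2 an X2-like match. These matches describe letters and are not binding sites. A promoter without a match to these exact letters, such as HLA-B or HLA-C for the ISRE-like motif, can still hold such an element. Since the motifs were chosen after the promoters had been seen, the shares of all promoters are not given as support.

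The heavy chain genes were highest in K562/IM. HLA-E was at 26.9, 31.8 and 32.1 CPM in K562, at 24.5, 27.1 and 22.4 in K562+L, at 121.0, 126.1 and 136.7 in K562/IM, and at 24.4, 23.6 and 25.5 in the labelled K562/IM+L libraries. Every K562/IM library thus lay far above all 9 others. The K562+L range overlapped that of both remaining groups, which did not overlap each other. HLA-C was at 0.982, 1.18 and 0.914 CPM in K562 and at 0.519, 0.150 and 0.211 in K562+L. It was at 7.75, 7.96 and 9.45 CPM in K562/IM and at 1.07, 2.0 and 1.96 in the labelled K562/IM+L libraries. The K562/IM libraries were again above all others, and every K562+L library was below every K562 library. HLA-B was at 2.43, 2.47 and 2.52 CPM in K562/IM, from 203, 237 and 270 counts. In the other 3 groups it was close to absent, with 2, 23 and 8 counts in K562, 3, 11 and 0 in K562+L, and 26, 0 and 14 in the labelled K562/IM+L libraries. These low values overlapped between groups. Pairs of groups without overlap were common over all genes tested, and such statements here and below are to be read beside those shares. The share was 51.5% in K562+L against K562 and 66.6% in K562/IM against K562. For the labelled K562/IM+L libraries it was 73.4% against K562/IM and 63.6% against K562.

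HLA-F was not detected in K562, at 0 of 253271412 counts, which allows up to 0.01185 CPM before scaling. The other groups held 7 (K562+L), 4 (K562/IM) and 10 (labelled K562/IM+L) counts over 3 libraries each. The gene was tested in no comparison and no fold is given. The limit covers counting error only, and PCR copies of a molecule are not independent counts.

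B2M, the shared light chain, was the most abundant member in every group. It was at 342.9, 378.5 and 388.5 CPM in K562 and at 254.4, 268.7 and 258.0 in K562+L. In K562/IM it was at 350.9, 385.0 and 367.1 CPM, within the K562 range, and in the labelled K562/IM+L libraries at 466.5, 516.1 and 424.5. The K562+L libraries were therefore below, and the labelled K562/IM+L libraries above, all others.

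Both transporter genes were lower in K562/IM than in K562, and they parted in the labelled K562/IM+L libraries. TAP1 was at 30.7, 32.9 and 36.8 CPM in K562, at 33.5, 32.4 and 29.5 in K562+L, at 17.0, 14.4 and 17.3 in K562/IM, and at 28.0, 29.9 and 28.1 in the labelled K562/IM+L libraries. TAP2 was at 116.0, 112.7 and 107.2 CPM in K562, at 127.5, 121.4 and 123.0 in K562+L, at 90.0, 83.3 and 88.5 in K562/IM, and at 33.2, 32.6 and 39.7 in the labelled K562/IM+L libraries. TAP1 was thus lowest in K562/IM and TAP2 lowest in the labelled K562/IM+L libraries, without overlap with any other group in either case. TAPBP was at 64.4, 69.8 and 69.2 CPM in K562, at 47.9, 48.1 and 41.4 in K562+L, at 87.9, 87.5 and 85.1 in K562/IM, and at 236.6, 245.6 and 230.1 in the labelled K562/IM+L libraries. The 4 groups did not overlap for this gene. NLRC5 was nearly absent in the sensitive line, at 8, 0 and 8 counts in K562 and 22, 8 and 16 in K562+L. It reached 467, 551 and 580 counts in K562/IM and 304, 288 and 369 in the labelled K562/IM+L libraries, that is 5.59, 5.73 and 5.41 CPM and 3.82, 4.02 and 3.92 CPM. Both groups lay above the other pair without overlap.

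**Figure D1:**
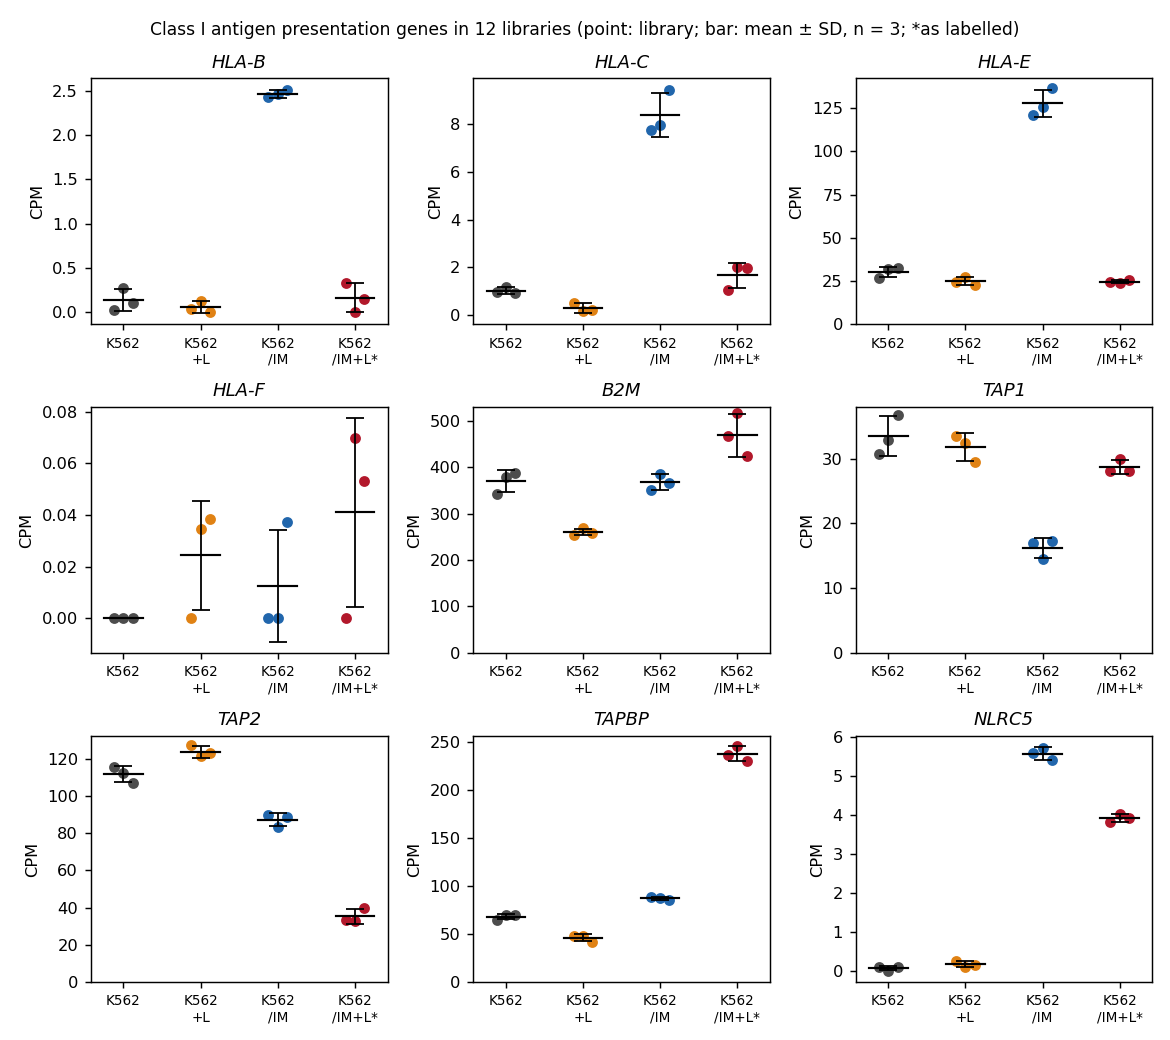
Level of each of the 9 members in CPM (linear axes, 1 panel a gene) in the 12 libraries, with points for libraries, a horizontal line for the group mean and bars for the SD (n = 3). HLA-B, HLA-C, HLA-E and NLRC5 were highest in the K562/IM libraries, TAPBP was highest in the labelled K562/IM+L libraries at 230.1 to 245.6 CPM, and HLA-F lay at or near 0 throughout.

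Levels of different genes can be ordered only per length, here as CPM per kilobase of merged exons. In K562 the order was B2M at 60.9 ± 3.94 (SD, n = 3), TAP2 at 17.5 ± 0.695, TAPBP at 13.4 ± 0.580, HLA-E at 10.2 ± 0.990 and TAP1 at 6.97 ± 0.643, and neighbours in this order did not overlap over the libraries. HLA-C followed at 0.409 ± 0.0552, with HLA-B at 0.0439 and NLRC5 at 0.00541, whose ranges overlapped. In K562+L the means stood in the same order, with B2M at 42.8 and HLA-C at 0.117 ± 0.0790, but TAPBP at 9.06 ± 0.749 and HLA-E at 8.30 ± 0.777 overlapped and could not be ordered. In K562/IM, HLA-E stood at 43.0 ± 2.68, next below B2M at 60.5 ± 2.81, and TAP1 at 3.38 ± 0.325 and HLA-C at 3.35 ± 0.371 could not be ordered. In the labelled K562/IM+L libraries, TAPBP stood next below B2M, at 47.0 ± 1.54 against 77.2 ± 7.54, and HLA-E was at 8.23 ± 0.310.

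The balance between partners can be read on the same per-length scale. The 4 heavy chain genes summed to 17.4% ± 0.676 of B2M in K562 (SD, n = 3), 19.7% ± 1.49 in K562+L, 78.0% ± 5.30 in K562/IM and 11.7% ± 1.60 in the labelled K562/IM+L libraries. HLA-E made up between 91.2% and 98.3% of that sum as a group mean. TAP1 relative to TAP2 was 0.399 ± 0.0531 in K562, 0.341 ± 0.0197 in K562+L, 0.247 ± 0.0149 in K562/IM and 1.10 ± 0.141 in the labelled K562/IM+L libraries. The transporter chains work as a pair, and in 3 of the 4 groups TAP2 transcript exceeded TAP1. No test was made on these ratios, and they depend on the length chosen. B2M has 6079 bases of merged exons but a longest transcript of 2403. With the longest transcript as length, B2M in K562/IM was at 153 CPM per kilobase and HLA-E at 49.2, against 60.5 and 43.0. TAP1 and TAP2 in the labelled K562/IM+L libraries were then at 9.69 and 6.19, against 5.97 and 5.50. The heavy chain share of B2M is thus lower, and TAP1 relative to TAP2 higher, by that length.

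**Figure D2:**
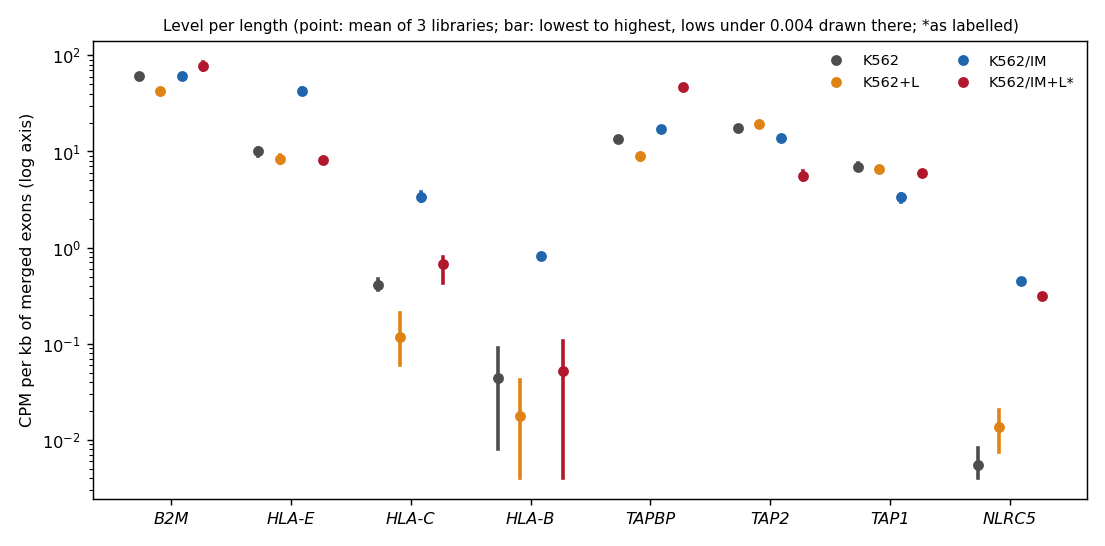
Level per length, in CPM per kilobase of merged exons (log axis), of 8 members in the 4 groups, with points for the mean of 3 libraries and vertical bars from the lowest to the highest library, where values under 0.004 are drawn at that level and HLA-F is left out for its near-zero counts. HLA-E is at 10.2 in K562, 43.0 in K562/IM and 8.23 in the labelled K562/IM+L libraries, and B2M is first in every group.

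The first comparison asks how imatinib-resistant K562/IM differed from K562 with neither given lycorine. Class I heavy chain genes and the transactivator were higher, the transporter genes were lower, and B2M differed by less than the spread. Of the 8 members tested, 5 rose and 2 fell at an adjusted p under 0.05, where 57.1% of the 13406 genes tested changed, 30.1% upwards and 27.1% downwards. With a log2 fold change beyond 1 in addition, 4 members were called higher and 1 lower, against 19.1% of all genes, 13.9% higher and 5.29% lower. NLRC5 rose by 6.37 on the log2 scale (SE 0.55, adjusted p = 6.13e-05), and its K562 side rests on 16 counts. HLA-B rose by 4.18 (SE 0.58, adjusted p = 6.3e-04), HLA-C by 3.03 (SE 0.17, adjusted p = 7.31e-06) and HLA-E by 2.08 (SE 0.097, adjusted p = 3.15e-06). TAPBP rose by 0.36 (SE 0.068, adjusted p = 0.00294). TAP1 fell by 1.04 (SE 0.11, adjusted p = 1.42e-04) and TAP2 fell by 0.36 (SE 0.070, adjusted p = 0.00321). B2M had a log2 fold change of -0.01 (SE 0.075, adjusted p = 0.923), and the sign of that value changed under other settings. HLA-B and NLRC5 passed the low-count filter only through K562/IM, where they are high, so the counts of members are not set against the background as support.

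Markers of other cell types were higher in K562/IM too, and in bulk libraries fewer cells of a type and less RNA per cell cannot be told apart. Summed T and NK cell markers were at 23.0 to 24.7 CPM against 2.07 to 3.19 in K562, and 2 of 2 tested were higher. CD3D, a chain of the T cell receptor complex, made up 22.0 CPM of this while CD3E of the same complex was at 0.0700. Summed fibroblast markers were at 19.8 to 24.9 CPM against 0.798 to 1.15, with 4 of 4 tested higher, most of it COL1A2, and PDGFRA at 0. COL1A2 and LUM passed the low-count filter only through K562/IM, with 4 and 21 counts in K562 against 4951 and 145. PDGFRA, with 22 counts in K562 and 0 in K562/IM, was not tested. B cell markers summed to 2.05 to 2.80 CPM against 0.644 to 1.22, with 1 of 2 tested higher and MS4A1 at 0. Monocyte markers summed to 162 to 171 CPM against 109 to 115, with 2 of 3 tested higher, most of it lysozyme (LYZ), and CD14 at 0.061. CSF1R, with 2 counts in K562 and 56 in K562/IM, likewise passed the low-count filter only through K562/IM. Of the 10 erythroid markers, 7 were lower. The part of these markers in the heavy chain result was not tested.

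The second comparison asks what lycorine did in the sensitive line. No member was higher in K562+L, and B2M, TAPBP and HLA-C were lower. Of the 6 members tested, 3 fell, where 37.3% of 12927 genes changed and 19% fell. HLA-C fell by 1.81 on the log2 scale (SE 0.49, adjusted p = 0.022) and was the only member called beyond the fold threshold, as 6.39% of all genes were, with 4.01% of all genes called lower. That call was lost without K562 replicate 2, K562+L replicate 2 or K562+L replicate 3, with adjusted p of 0.0729, 0.0554 and 0.0733 and log2 fold changes of -1.69, -1.497 and -1.61. B2M fell by 0.51 (SE 0.080, adjusted p = 0.00293) and TAPBP fell by 0.57 (SE 0.094, adjusted p = 0.00358). HLA-E had a log2 fold change of -0.30 (SE 0.11, adjusted p = 0.0709), which passed under upper-quartile scaling, with all 12 libraries in the fit and without K562 replicate 1. TAP1 was at -0.075 (SE 0.10, adjusted p = 0.593). TAP2 was at 0.15 (SE 0.079, adjusted p = 0.179), although its groups did not overlap, as held for 51.5% of genes. HLA-B, HLA-F and NLRC5 had too few counts to be tested. The median over the tested members was -0.40, against -0.0001 over all genes. Of the 10 erythroid markers, 6 were lower here. Of 2 tested T and NK cell markers 1 was lower, CD3D, which fell by 2.21 (adjusted p = 0.00169), and their summed level was 0.658 to 0.921 CPM against 2.07 to 3.19 in K562. No tested B cell, monocyte or fibroblast marker passed. The part of these markers was not tested.

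The third comparison sets the labelled K562/IM+L libraries against K562/IM and so shares its K562/IM libraries with the first. All 8 tested members changed, and the heavy chain genes, TAP2 and NLRC5 were lower while TAPBP, TAP1 and B2M were higher. Of the members 3 rose and 5 fell. Changes at this threshold were common, at 66.8% of 13727 genes, with 33.2% of genes higher and 33.6% lower. With the fold threshold 1 member was called higher and 4 lower, against 28.5% of genes, 14.7% higher and 13.8% lower. HLA-B fell by 3.90 (SE 0.76, adjusted p = 0.00266), HLA-C fell by 2.30 (SE 0.25, adjusted p = 1.52e-04) and HLA-E fell by 2.36 (SE 0.079, adjusted p = 5.75e-07). TAP2 fell by 1.28 (SE 0.097, adjusted p = 2.34e-05). NLRC5 fell by 0.48 (SE 0.12, adjusted p = 0.00846), which did not pass the test with all 12 libraries in the fit (adjusted p = 0.278). TAPBP rose by 1.48 (SE 0.063, adjusted p = 1.62e-06), TAP1 by 0.85 (SE 0.096, adjusted p = 1.77e-04) and B2M by 0.38 (SE 0.085, adjusted p = 0.00556). HLA-B again passed the low-count filter only through K562/IM. In the same comparison 10 of 10 erythroid markers were higher. Lower were 4 of 4 tested fibroblast markers, 2 of 3 tested T and NK cell markers, 1 of 1 tested B cell markers and 1 of 3 tested monocyte markers. Of the fibroblast markers, COL1A2 and LUM again passed the low-count filter only through K562/IM. Summed T and NK cell markers were at 1.01 to 1.83 CPM against 23.0 to 24.7 in K562/IM, and CD3D was at 0.343 against 22.0. Fibroblast markers summed to 1.07 to 1.37 CPM against 19.8 to 24.9, B cell markers to 0.168 to 0.606 against 2.05 to 2.80, and monocyte markers to 75.4 to 80.3 against 162 to 171. The part of these markers in the results was not tested.

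Against K562, from which they differ by label in both line and treatment, the labelled K562/IM+L libraries were higher in NLRC5, TAPBP and B2M and lower in TAP2 and HLA-E. Of the 8 members tested, 3 rose and 2 fell, where 56% of 13307 genes changed, 28.2% upwards and 27.8% downwards. Beyond the fold threshold 2 were called higher and 1 lower, against 23.8% of genes, 14.9% higher and 8.91% lower. NLRC5 was higher by 5.84 on the log2 scale (SE 0.66, adjusted p = 2.99e-04) and TAPBP by 1.79 (SE 0.084, adjusted p = 1.02e-05). TAP2 fell by 1.69 (SE 0.099, adjusted p = 2.02e-05). B2M rose by 0.32 (SE 0.11, adjusted p = 0.0342) and HLA-E fell by 0.33 (SE 0.10, adjusted p = 0.0283). Those last results are fragile, since B2M no longer passed the test without any 1 of K562 replicates 1 and 2 and labelled K562/IM+L replicates 1 and 2, and HLA-E without any 1 of K562 replicates 2 and 3 and the same labelled replicates, all at adjusted p of 0.0944 to 0.133. HLA-C was at 0.69 (SE 0.31, adjusted p = 0.0996), and it passed at 0.91 (adjusted p = 0.0352) without labelled K562/IM+L replicate 1. HLA-B was at 0.23 (SE 1.23, adjusted p = 0.887). TAP1 was at -0.24 (SE 0.10, adjusted p = 0.0766), and it passed at -0.30 (adjusted p = 0.0497) without K562 replicate 1. HLA-B and NLRC5 had few counts in K562 and were not tested where every library had to hold at least 10 counts. NLRC5 passed the low-count filter only through the labelled K562/IM+L libraries, where it is high. The counts of members are therefore not set against the background as support. Under upper-quartile scaling the median of all genes was 0.17, and 73.0% of called genes were higher in place of 62.5%. Of the 10 erythroid markers, 8 were higher, and CD3D was lower by 2.67 on the log2 scale, at 0.343 against 2.15 CPM. The part of these markers was not tested.

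**Figure D3:**
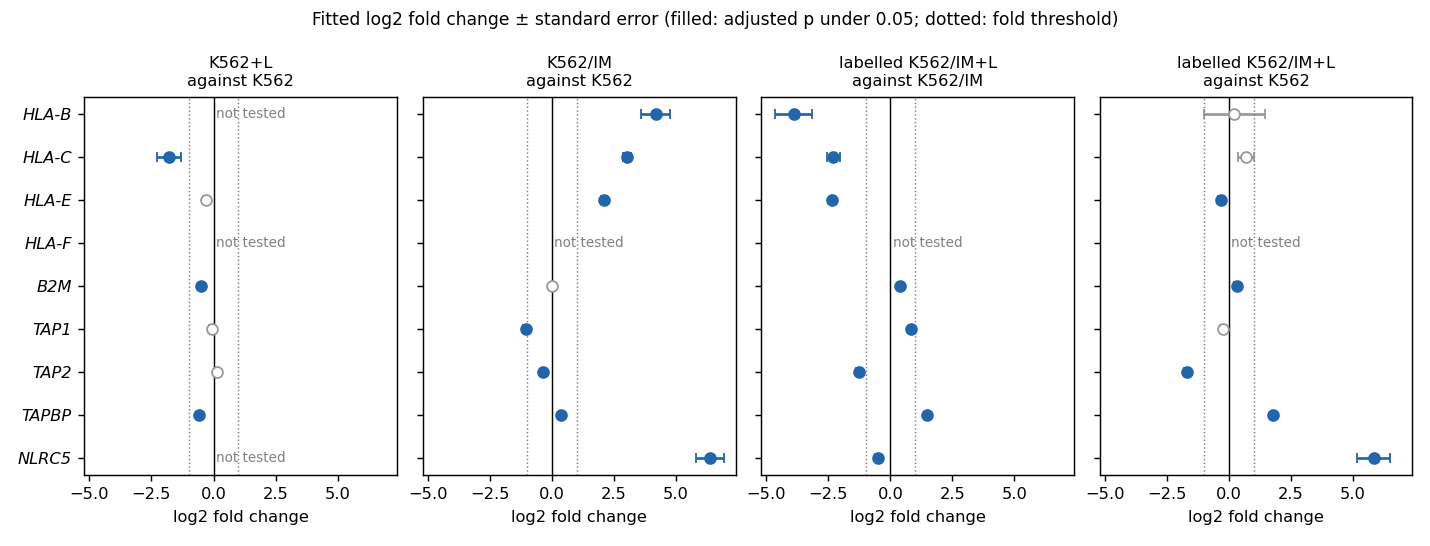
Log2 fold change of each tested member in the 4 pairwise comparisons, with bars for the standard error, filled points at an adjusted p under 0.05 and dotted lines at the fold threshold. HLA-B, HLA-C and HLA-E lie at 2.08 to 4.18 in K562/IM against K562 and at -3.90 to -2.30 in labelled K562/IM+L against K562/IM, and TAP1 and TAP2 point in opposite directions in the latter.

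Whether the difference attributed by label to lycorine was the same in both lines was tested over the 12 libraries as (labelled K562/IM+L minus K562/IM) minus (K562+L minus K562). It differed for 6 of 8 members, 3 upwards and 3 downwards, where 61.7% of 13995 genes did, 29.9% upwards and 31.7% downwards. The value was negative for HLA-E, TAP2 and NLRC5, at -2.09 (SE 0.13, adjusted p = 1.41e-07), -1.45 (SE 0.11, adjusted p = 7.46e-07) and -1.81 (SE 0.73, adjusted p = 0.0459). It was positive for TAPBP, TAP1 and B2M, at 2.02 (SE 0.10, adjusted p = 2.42e-08), 0.90 (SE 0.14, adjusted p = 1.32e-04) and 0.86 (SE 0.11, adjusted p = 4.72e-05). B2M and TAPBP therefore fell in one line and rose in the other. HLA-C was at -0.51 (SE 0.52, adjusted p = 0.423) and HLA-B at -2.58 (SE 1.56, adjusted p = 0.175), with too few HLA-B counts in K562 and K562+L for a narrow interval. The NLRC5 value no longer passed the test in 8 of the 12 fits without 1 library, at adjusted p of 0.0613 to 0.138. NLRC5 passed the low-count filter only through the K562/IM and labelled K562/IM+L libraries, where it is high. Here too the counts of members are not set against the background as support.

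The rest of the pathway was followed in 60 further genes on 7 lists. In the order K562+L against K562, K562/IM against K562, labelled K562/IM+L against K562/IM and labelled K562/IM+L against K562, 3, 14, 20 and 16 of them rose and 17, 21, 18 and 19 fell, out of 57, 57, 58 and 58 tested. Over all genes 18.2%, 30.1%, 33.2% and 28.2% rose and 19%, 27.1%, 33.6% and 27.8% fell in these comparisons, and the tallies of each list are to be read beside these shares. They are descriptions, with no test of a list. The medians were -0.14, -0.15, 0.08 and -0.07 on the log2 scale. The same order of comparisons is kept for every list below, and comparisons that share a group share its libraries.

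Peptides are first cut by the proteasome. The 6 genes on the immunoproteasome list include the proteasome activator genes PSME1, PSME2 and PSME3, which are not subunits of the immunoproteasome itself. Of the 6, 0, 0, 2 and 1 rose and 3, 4, 1 and 4 fell. PSMB9, a catalytic subunit encoded beside TAP1, was at 13.6 CPM in K562, 10.9 in K562+L, 1.46 in K562/IM and 5.45 in the labelled K562/IM+L libraries. It fell by 3.23 in K562/IM and rose by 1.93 from there in the labelled K562/IM+L libraries, the same directions as TAP1. PSMB8, another catalytic subunit, was low, at 0.730 CPM in K562, and fell by 1.92 in K562/IM and by 2.33 in the labelled K562/IM+L libraries against K562. In K562+L, PSMB10 fell by 0.74, and PSME1, a subunit of the PA28 activator, fell by 0.97. PSME1 rose by 1.07 in the labelled K562/IM+L libraries against K562/IM, and PSME3 fell by 1.67 there against K562. Cytosolic trimming enzymes rose in 0, 0, 1 and 1 and fell in 1, 3, 3 and 4 of 6 cases. Bleomycin hydrolase (BLMH) fell by 0.36 in K562+L and by 0.56 in K562/IM, where leucine aminopeptidase LAP3 fell by 0.48. Tripeptidyl peptidase TPP2 fell by 1.60 and LAP3 by 0.79 in the labelled K562/IM+L libraries against K562/IM, and by 1.67 and 1.32 against K562.

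In the endoplasmic reticulum, 0, 2, 4 and 3 of 9 loading and trimming genes rose and 5, 5, 1 and 3 fell. TAPBPL, a tapasin relative that edits peptides, moved like TAPBP: it fell by 1.44 in K562+L, and it rose by 1.23 and 1.59 in the labelled K562/IM+L libraries against K562/IM and K562. Its level was low, at 1.88 CPM in K562. The chaperone HSPA5 fell by 1.10 in K562+L. In K562/IM the export receptor BCAP31 fell by 0.93 and the trimming peptidase ERAP1 rose by 0.91. Calreticulin (CALR), which holds new class I molecules, rose by 0.70 in the labelled K562/IM+L libraries against K562/IM, and ERAP2 rose by 1.03 there against K562.

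Factors that act at class I promoters changed by at most 0.95 on the log2 scale, up or down, in K562/IM. Of 13, 0, 5, 6 and 4 rose and 3, 3, 3 and 2 fell. RFX5 had log2 fold changes of -0.30, 0.46, -0.91 and -0.49, all past the test. RFXANK fell by 0.95 in K562/IM and rose by 1.32 in the labelled K562/IM+L libraries against K562/IM. RFXAP fell by 0.39 in K562+L. CIITA, the class II transactivator, fell in all 4 comparisons, by 0.72, 0.49, 0.59 and 1.12. IRF1, which acts at ISRE elements, rose by 0.52 in K562/IM and by 1.10 in the labelled K562/IM+L libraries against K562, and IRF2 rose by 0.57 in K562/IM.

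Of the 10 interferon receptor and signalling genes, 1, 5, 3 and 3 rose and 3, 1, 3 and 1 fell. STAT2 rose by 0.76 in K562/IM and by 0.89 in the labelled K562/IM+L libraries against K562, where its partner IRF9 rose by 0.80. The receptor chain IFNGR1 rose by 0.88 in K562/IM and fell by 1.10 in the labelled K562/IM+L libraries against K562/IM, where IFNAR2 fell by 0.92. In K562+L, IFNAR2 fell by 0.47 and IFNGR2 by 0.36. Of 21 interferon-induced genes, a list kept apart from the pathway, 5 of 17 tested rose and 6 fell in K562+L. There 18.2% and 19% of all genes did. In K562/IM, 10 of 18 rose and 1 fell, where 30.1% and 27.1% of all genes did. In the labelled K562/IM+L libraries, 8 of 18 rose and 6 fell against K562/IM, where 33.2% and 33.6% of all genes did. Against K562, 11 rose and 4 fell in them, where 28.2% and 27.8% of all genes did. Examples picked after their values were seen are TRIM22, which rose by 6.41 in K562/IM and fell by 4.35 from there, IFI6, at 2.27 and -0.51, and UBE2L6, at 1.74 and -0.43. TRIM22 held 12 counts in K562, 1248 in K562/IM and 50 in the labelled K562/IM+L libraries. Against K562 it passed the low-count filter only through K562/IM, where it is high. Others on the list went the other way from K562/IM to the labelled K562/IM+L libraries, such as IRF7, which rose by 1.38 from 4.84 to 12.4 CPM, and IFI35, which rose by 1.45 from 6.45 to 17.3 CPM.

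Genes of class I silencing and surface turnover rose in 2, 1, 3 and 2 and fell in 1, 5, 5 and 4 of 9 cases. The Polycomb subunits are known to repress class I genes in leukemia lines. EZH2 fell by 0.50 in K562/IM, and EED fell by 0.60 in the labelled K562/IM+L libraries against K562. SUSD6, TMEM127 and WWP2 form a complex that routes class I molecules to lysosomes. SUSD6 fell by 0.61 in K562+L, and by 0.86 and 0.89 in the labelled K562/IM+L libraries against K562/IM and K562, while TMEM127 rose by 0.46 in K562+L and by 0.57 in K562/IM. The ubiquitin ligase MARCHF9 rose by 0.80 in the labelled K562/IM+L libraries against K562/IM.

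Of 7 class I-like genes, 4 or 5 were tested, of which 0, 1, 1 and 2 rose and 1, 0, 2 and 1 fell. MR1, which presents vitamin metabolites, rose by 1.98 in K562/IM, from 17.96 to 70.7 CPM, and stayed higher by 1.61 in the labelled K562/IM+L libraries against K562. MR1 pairs with B2M, as do the class I heavy chains. The antibody receptor FCGRT, also a B2M partner, rose by 4.22 and 2.64 in the labelled K562/IM+L libraries against K562/IM and K562, to a low 0.560 CPM. FCGRT held 8 counts in K562/IM, 21 in K562 and 137 in the labelled K562/IM+L libraries. It passed the low-count filter only through the labelled libraries, where it is high. The stress ligand MICA fell by 0.41 in K562+L, and MICB fell by 0.69 in the labelled K562/IM+L libraries against K562/IM. Of 9 class II genes, 1 to 3 were tested. HLA-DPB1 alone passed, at 4.73 in K562/IM and -2.54 in the labelled K562/IM+L libraries against K562/IM, and the summed class II level stayed at or below 1.157 CPM in every library. HLA-DPB1 passed the low-count filter only through K562/IM, where it is high. It held 135 counts there, 4 in K562 and 19 in the labelled K562/IM+L libraries.

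**Figure D4:**
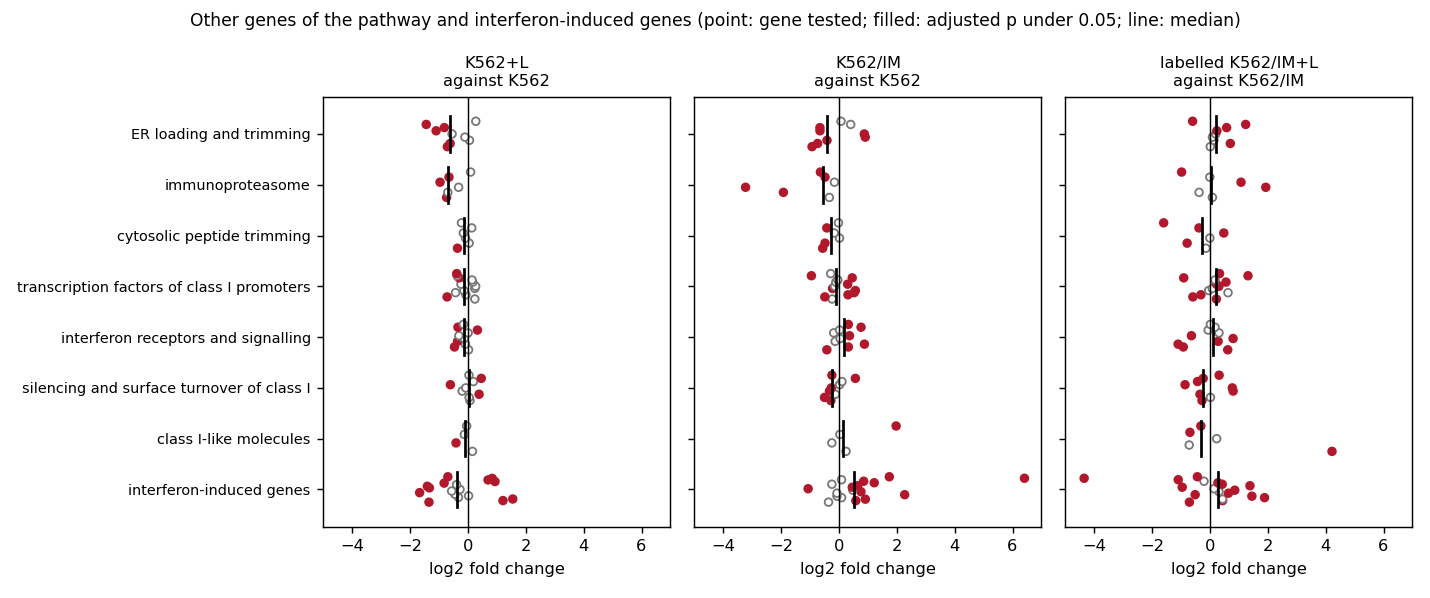
Log2 fold change of each tested gene on the 7 pathway lists and the interferon-induced list in 3 comparisons, with points for genes, filled at an adjusted p under 0.05, and a vertical line for the median of the list. In K562+L 17 of 57 tested pathway genes fell and 3 rose, where 19% and 18.2% of all genes did, and PSMB9, at -3.23 in K562/IM, is the lowest point of the middle panel.

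Genes with the most similar pattern over the 12 libraries were found by the root mean square difference of centred log2 CPM, among genes with a mean of at least 1 CPM. For HLA-B they were LGALS12, CTSS and CD276, at 0.45, 0.54 and 0.56, against a root mean square of 1.75 for HLA-B itself. For NLRC5 they were MAP3K15, DAPP1 and OR13A1, at 0.58, 0.61 and 0.62, against 2.32. For TAP1 they were CCDC85C, ADSL and CPT1A, at 0.12, 0.13 and 0.14, against 0.43. For B2M they were DAP, ARHGEF39 and DAZAP2, at 0.064, 0.065 and 0.070, against 0.31. The measure is a description over libraries that share their groups.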

How the data were processed

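Gene-level read counts of 12 messenger RNA libraries were deposited by the authors as 1 table of whole numbers that had not been normalized. Per the labels, the submitters' processing notes name FastQC, STAR, StringTie, DESeq2 and hg38, without roles or versions, and the counting rule and strand setting are not given in the sources used here. Low values cluster in steps of 4, since 67.9% of 23289 values between 1 and 25 equalled a multiple of 4 or exceeded one by 1. Many whole numbers in that range meet this rule in any case, so the share alone overstates the clustering. No 2 libraries of the same group agreed within sampling noise, and pairs across groups were not compared in this way. Columns of other samples numbered 0. Libraries were grouped by their labels.

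Counts were filtered (filterByExpr, minimum count 10), scaled by TMM and tested by the quasi-likelihood test of edgeR 4.0.16 in R 4.3.3 over all genes, with Benjamini-Hochberg adjustment over all genes tested. Each pairwise comparison was fitted on its own 6 libraries, and the difference of differences on all 12. A gene changed at an adjusted p under 0.05 and was called where its absolute log2 fold change also passed 1. For the difference of differences only the adjusted p was used. An exact permutation test of 3 against 3 libraries cannot go below p = 0.1 and was not used. Counts simulated with 200 changed genes were tested in the same way: 200 were recovered with 0 false calls among 12931 genes for K562+L against K562, and 199 with 8 false calls among 13699 genes for the difference of differences. The changed genes were drawn from well-counted genes only, with a single size of change beyond the fold threshold. All genes were given the same spread. The recovery therefore does not cover members with low counts or small changes. DESeq2 1.42.0 served as an alternative test. Other alternatives were other scalings and filters, counts divided by 4, a replicate block, all libraries in each fit, each library left out and no fold threshold.

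Lengths, overlaps and shared 50-base words came from GENCODE release 29. A pseudocount of 0.1 CPM was used for likeness of pattern. The members and all gene lists were chosen with earlier results of these data known. All members are named. Further genes named are, per pathway list and pairwise comparison, at most 2 with the largest absolute change among those that passed, with IRF1, RFX5, PSMB8, PSMB9 and CIITA in any case. Some genes that the lists hold are not reported here by name.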

Additional observations from a re-analysis of the deposited data

Results flagged for a closer look

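For 6 members the difference between the labelled K562/IM+L libraries and K562/IM was not the same as that between K562+L and K562, by a test of the difference itself (edgeR's quasi-likelihood test, adjusted p under 0.05). The difference of the log2 fold changes was -2.09 for HLA-E, -1.45 for TAP2 and -1.81 for NLRC5. It was 2.02 for TAPBP, 0.90 for TAP1 and 0.86 for B2M. Such a difference was common in the table, at 61.7% of genes tested, and the NLRC5 value rests on low counts in K562 and K562+L. The part of the erythroid markers, which differed in the same test for 10 of 10 genes, was not tested.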

How the results depend on the processing

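Of the members' log2 fold changes under all alternatives, 526 kept their direction and side of the threshold, 25 no longer passed the test, 5 newly passed it and 8 changed sign. With no fold threshold the members called were 3 in place of 1 in K562+L against K562, 8 in place of 5 in the labelled K562/IM+L libraries against K562/IM and 5 in place of 3 against K562. Over all genes the counts were then 4821 in place of 826, 9169 in place of 3917 and 7446 in place of 3162, and 7661 in place of 2566 in K562/IM against K562. With at least 10 counts in every library, 3 members in place of 5 were called in K562/IM against K562, where HLA-B and NLRC5 were no longer tested.

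Leaving out 1 library at a time gave 0 to 1 members called in K562+L against K562 and 4 to 5 in K562/IM against K562, where TAP1 came to -0.98 without K562 replicate 3 and -0.97 without K562/IM replicate 2, inside the fold threshold. It gave 5 to 5 in the labelled K562/IM+L libraries against K562/IM, 3 to 3 against K562, and 5 to 6 members that passed in the difference of differences, where no fold threshold applies. The log2 fold change of B2M in K562/IM against K562 changed sign, to 0.0381 with upper-quartile scaling, 0.0063 with the stricter filter, and 0.0070, 0.016 and 0.024 without K562 replicate 2, K562 replicate 3 and K562/IM replicate 1, out of a range of -0.0944 to 0.024 with 1 library left out. HLA-B in the labelled K562/IM+L libraries against K562 changed to -0.26 without K562 replicate 1 and to -0.81 without labelled replicate 1, in a range up to 1.28. HLA-C in the difference of differences changed to 0.17 without K562+L replicate 1, in a range from -0.82. None of these 3 values had passed its test, and the cause was not tested. Upper-quartile scaling also took HLA-E against K562 to -0.18 (adjusted p = 0.186) in the labelled K562/IM+L libraries and NLRC5 in the difference of differences to -1.68 (adjusted p = 0.062), and it moved the median of all genes in the latter to 0.11.

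Libraries with the same replicate number did not deviate together. Their correlations ran from -0.50 to 0.35 over 18 pairs, 5 of them over 0.1, against -0.42 to 0.52 over 36 pairs with different numbers, 8 of them over 0.1. With the replicate number as a block, the members called were 1, 5, 5 and 3 in the pairwise comparisons and, at an adjusted p under 0.05 with no fold threshold, 5 in place of 6 passed in the difference of differences. The block gave -0.32 for HLA-E (adjusted p = 0.0948) and 0.32 for B2M (adjusted p = 0.114) in the labelled K562/IM+L libraries against K562, and -1.82 for NLRC5 in the difference of differences (adjusted p = 0.0627). The order of levels per length stayed the same with the longest transcript as length, except that TAP1 passed HLA-E in K562+L and in the labelled K562/IM+L libraries. Depth limits HLA-F in all groups, NLRC5 in K562 and K562+L, and HLA-B in those groups and in the labelled K562/IM+L libraries.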
